A study of Mus musculus with 8 samples.

Results

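Adult neurogenesis genes were followed in the cortex and hippocampus of mice lacking Tet1 (KO) and of wild-type mice (WT). The 9 genes are Dcx, Prox1, Hopx, Ccnd2, Sox2, Nes, Eomes, Neurod1 and Sox11, which mark neural stem cells, their dividing progeny and immature neurons. They were found by symbol among the non-control probes of the array, where 15 of 39429 probes carried one of these names. Of the 9 genes, 8 were measured well enough to test, among 16773 genes tested in all, and Eomes was not.

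The samples were KO hippocampus, WT hippocampus, KO cortex and WT cortex, with 2 samples in each of the 4 groups. All mice were naive and carried a genetic background labelled 129 C57BL6. Age, sex and the Tet1 allele are not given in the labels. KO is labelled only as a Tet1 knockout, with no promoter or Cre named, and the tissue was whole snap-frozen cortex or hippocampus, not sorted progenitors. Each KO sample was labelled with Cy5 and shared a two-colour Agilent array with the WT sample of the same tissue and number, labelled with Cy3, so that 4 arrays held the 8 samples. The labels do not say that replicates are separate animals, and the p-values then reflect how far these samples spread, a spread that may be technical.

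In the adult mouse, new neurons form in the dentate gyrus of the hippocampus and in the subventricular zone beside the lateral ventricle, not in the cortex. Radial glia-like stem cells carry Sox2, Nes and Hopx, intermediate progenitors carry Eomes, and their neuronal daughters pass through a stage marked by Neurod1, Sox11 and Dcx before they mature into granule neurons, which keep Prox1. Few of these genes are private to that lineage in whole tissue, since Prox1 and Neurod1 are also made by mature granule neurons, Sox2 and Hopx by astrocytes, and Nes by dividing or vessel-associated cells. Tet1 is a dioxygenase that oxidises 5-methylcytosine at CpG sites, and in mice its loss has been studied for its effect on adult hippocampal progenitors. The comparisons below ask where these genes differed between hippocampus and cortex within each genotype, and whether they differed between KO and WT.

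The probe sequences of Ccnd2 and Neurod1 are shown because they are the part of the transcript that these measurements read. The Ccnd2 probe lies at chr6:127098696-127098755 and the main Neurod1 probe at chr2:79294309-79294368 (mouse build mm9, as the array files give them, transcripts on the minus strand). Both run 5′ to 3′, and no base is set apart by a capital.
Ccnd2 probe A_52_P53906: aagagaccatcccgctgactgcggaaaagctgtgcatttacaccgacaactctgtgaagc
Neurod1 probe A_55_P2004972: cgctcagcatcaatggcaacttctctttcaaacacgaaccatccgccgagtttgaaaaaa

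Promoter windows are shown because CpG sites are what Tet1 acts on. The windows are the 250 bases upstream of the RefSeq start (build GRCm38.p6, transcripts on the minus strand), at chr1:190170828-190171077 for Prox1, chr2:79456637-79456886 for Neurod1 and chrX:143933220-143933469 for Dcx. Capitals mark each CG, which reads the same on both strands. Prox1 and Neurod1 were higher in hippocampus than in cortex and Dcx was lower, as described below. Hopx was also higher, and Sox2, Nes and Sox11, some of them rich in CG, did not pass the test between tissues. No relation of the CG count to these differences was tested.
Prox1 promoter: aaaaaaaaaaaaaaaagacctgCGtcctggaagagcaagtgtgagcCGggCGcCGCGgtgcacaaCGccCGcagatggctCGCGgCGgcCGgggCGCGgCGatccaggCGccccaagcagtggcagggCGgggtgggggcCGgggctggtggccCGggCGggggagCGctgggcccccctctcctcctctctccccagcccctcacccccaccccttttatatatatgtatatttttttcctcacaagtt
Neurod1 promoter: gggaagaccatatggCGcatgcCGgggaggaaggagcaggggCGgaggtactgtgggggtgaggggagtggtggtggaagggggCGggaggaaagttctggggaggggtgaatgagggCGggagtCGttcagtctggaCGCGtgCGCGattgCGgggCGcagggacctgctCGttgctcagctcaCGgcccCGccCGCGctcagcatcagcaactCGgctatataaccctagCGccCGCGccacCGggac
Dcx promoter: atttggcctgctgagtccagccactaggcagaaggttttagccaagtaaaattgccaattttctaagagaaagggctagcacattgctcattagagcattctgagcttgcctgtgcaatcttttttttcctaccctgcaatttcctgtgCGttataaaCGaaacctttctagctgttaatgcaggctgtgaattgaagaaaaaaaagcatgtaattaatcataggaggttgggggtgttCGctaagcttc

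The Prox1 window held 20 CG, the Neurod1 window 22 and the Dcx window 3. Among 32851 RefSeq windows of the same length, 92.1% held at least 1 CG, and the median was 6, with quartiles of 2 and 16. RefSeq gave 11 windows for 8 of the 9 genes, with Sox2 at 27 CG, Hopx at 18 and 8, Sox11 at 17, Nes at 15, Prox1 at 11 in a second window and Eomes at 8. The second Dcx window also held 3. DNA methylation was not measured here, and these counts describe the sequence only.

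Prox1, the homeobox factor that specifies dentate granule neurons and stays on in them, had the largest difference of the 8 genes between hippocampus and cortex. Values here are log2 levels of one probe, so they compare samples for one gene and not one gene with another. The Prox1 probe (chr1:191945785-191945844) stood at 9.42 and 9.45 in KO hippocampus, against 7.57 and 7.67 in KO cortex. It stood at 9.23 and 9.0 in WT hippocampus, against 7.40 and 7.55 in WT cortex. All 4 hippocampus samples lay above all 4 cortex samples. The log2 ratio of hippocampus over cortex was 1.82 ± 0.10 in KO (SE, n = 2 samples a group, 3.52-fold, limma adjusted p = 0.000126). In WT the cortex signal was not well above background, so hippocampus was at least 3.01-fold higher there (fitted log2 ratio 1.64 ± 0.10, adjusted p = 0.000172). This bound compares the mean of the brighter group with a floor on each array. The floor is the dim probe itself or the faintest probe that is above background, whichever is higher. Where the dim probe is the higher, the bound is the measured ratio. Sampling error is left out of every such bound, here and below. The 95% interval of the fitted WT fold of Prox1 was 2.65 to 3.68.

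Neurod1, a basic helix-loop-helix factor needed for granule neurons to form and survive, was also higher in hippocampus. Its main probe had log2 levels of 9.65 and 9.94 in KO hippocampus, against 9.05 and 8.94 in KO cortex. The levels were 9.66 and 9.55 in WT hippocampus, against 8.94 and 8.98 in WT cortex. The groups did not overlap in either genotype, as was true of 60.1% of all genes in KO and 56.0% in WT. Hippocampus exceeded cortex by 0.80 ± 0.11 in KO (adjusted p = 0.00434) and by 0.64 ± 0.11 in WT (adjusted p = 0.0104). A second Neurod1 probe, A_52_P408391, gave 0.75 in KO and 0.70 in WT. The call was lost without cortex replicate 1 (0.85, adjusted p = 0.0666 in KO; 0.62, adjusted p = 0.117 in WT) and without cortex replicate 2 (0.74, adjusted p = 0.0867 in KO; 0.66, adjusted p = 0.111 in WT).

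Hopx, a small homeodomain protein found in quiescent stem cells of the dentate gyrus and in astrocytes, rose in hippocampus by 1.17 ± 0.10 in KO (2.25-fold, adjusted p = 0.000624) and by 0.88 ± 0.10 in WT (1.84-fold, adjusted p = 0.00176). Its main probe (chr5:77516460-77516519) had log2 levels of 13.48 and 13.35 in KO hippocampus, against 12.28 and 12.21 in KO cortex. In WT hippocampus they were 13.16 and 13.18, against 12.42 and 12.16 in WT cortex. The second probe, A_55_P2011286, differed by 1.18 in KO and 0.96 in WT, so both probes gave the same direction and nearly the same size.

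Ccnd2 encodes cyclin D2, the D-type cyclin on which adult hippocampal progenitors depend for division. Its log2 levels were 12.70 and 12.74 in KO hippocampus, against 12.05 and 11.96 in KO cortex, and 12.76 and 12.68 in WT hippocampus, against 11.81 and 11.89 in WT cortex. The 4 hippocampus samples lay together and above every cortex sample. The ratio was 0.71 ± 0.08 in KO (1.64-fold, adjusted p = 0.00138) and 0.87 ± 0.08 in WT (1.82-fold, adjusted p = 0.000655).

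Dcx, the microtubule-binding protein of migrating neuroblasts and the usual marker of new neurons, ran the other way and was lower in hippocampus. The main Dcx probe (chrX:140290854-140290913) had log2 levels of 9.52 and 9.66 in KO hippocampus, against 10.45 and 10.24 in KO cortex. In WT hippocampus the levels were 9.54 and 9.47, against 10.38 and 10.37 in WT cortex. No hippocampus sample reached the lowest cortex sample. Hippocampus was 1.69-fold lower in KO (log2 ratio -0.76 ± 0.10, adjusted p = 0.0028) and 1.82-fold lower in WT (-0.86 ± 0.10, adjusted p = 0.00156). Without cortex replicate 1 the KO ratio was -0.65 with adjusted p = 0.0606. The other 2 Dcx probes were dim. A_55_P2080126 was well above background in KO only, with differences of -0.17 in KO and -0.12 in WT, and A_52_P506493 was above background in no sample.

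Sox2, Nes and Sox11 did not pass the test between tissues in either genotype. Sox2, the transcription factor that keeps stem cells undifferentiated, had log2 levels of 9.96 and 9.96 in KO hippocampus, against 9.67 and 9.85 in KO cortex, and 10.1 and 10.11 in WT hippocampus, against 10.07 and 9.98 in WT cortex. Its ratio was 0.20 (95% interval 0 to 0.40, adjusted p = 0.174) in KO and 0.08 (-0.12 to 0.28, adjusted p = 0.574) in WT. Nes, the intermediate filament nestin, lay between 9.80 and 10.03 in all 8 samples, with ratios of 0.03 (-0.18 to 0.24, adjusted p = 0.873) in KO and 0.17 (-0.04 to 0.38, adjusted p = 0.257) in WT. Sox11, a factor of newborn neurons, had the widest spread between replicates. Its log2 levels were 9.18 and 8.97 in KO hippocampus, against 9.01 and 8.56 in KO cortex, and 8.49 and 8.88 in WT hippocampus, against 8.62 and 8.90 in WT cortex. The ratio was 0.30 (-0.21 to 0.80, adjusted p = 0.435) in KO and -0.07 (-0.58 to 0.44, adjusted p = 0.869) in WT.

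**Figure D1:**
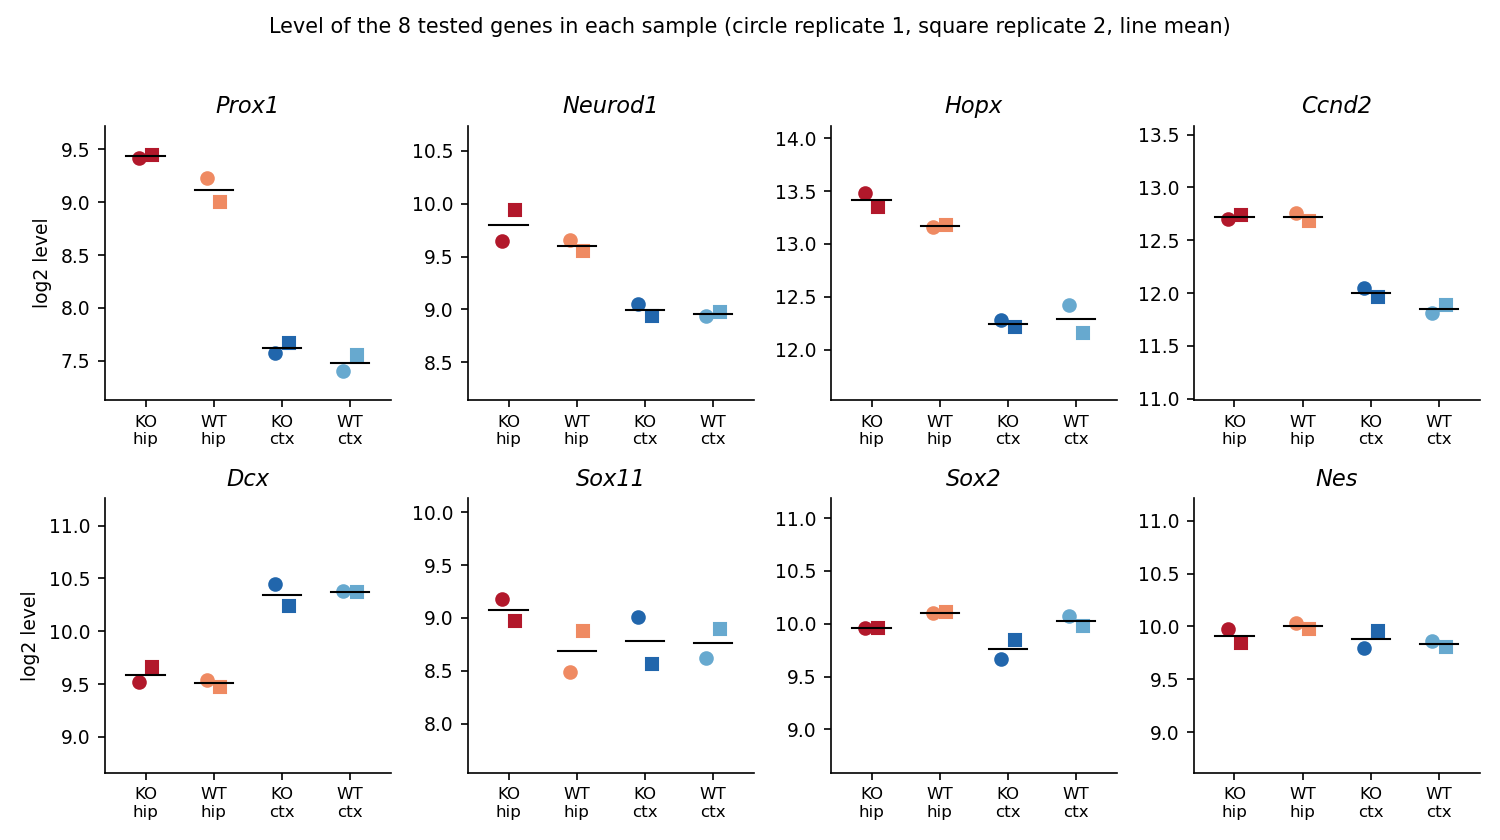
Log2 level (vertical axis, of equal span in every panel) of each of the 8 tested genes in KO hippocampus, WT hippocampus, KO cortex and WT cortex. Circles are replicate 1, squares replicate 2 and lines the mean of the pair. Prox1, Neurod1, Hopx and Ccnd2 sit higher in all 4 hippocampus samples than in all 4 cortex samples, Dcx sits lower, and Sox11, Sox2 and Nes overlap.

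Of the 8 tested genes, 4 were higher and 1 was lower in hippocampus in KO, where 14.8% of all 16773 genes passed the test (7.29% higher and 7.54% lower). The count in WT was again 4 higher and 1 lower, where 15.0% of all genes passed (7.77% higher and 7.20% lower). The median ratio of the 8 genes was 0.50 in KO, against 0.01 over all genes, and 0.41 in WT, against 0.03 over all genes. All 4 hippocampus samples lay apart from all 4 cortex samples for 5 of the 8 genes, and for 25.4% of all genes. Whole tissue was measured, so fewer cells of a type and less RNA per cell cannot be told apart.

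**Figure D2:**
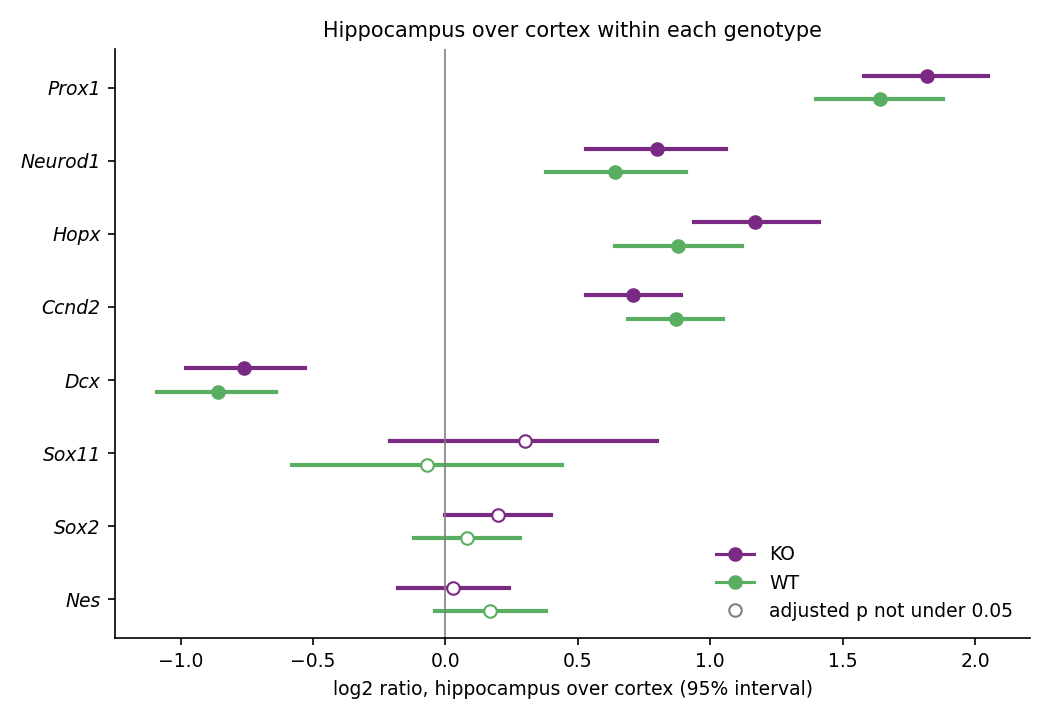
Log2 ratio of hippocampus over cortex (horizontal axis) for the 8 tested genes, with KO above WT for each gene and lines for the 95% interval of the limma fit. Open circles did not pass an adjusted p of 0.05. Prox1 lies farthest from 0, at 1.82 in KO and 1.64 in WT, and Dcx is the only gene below 0 in both, at -0.76 in KO and -0.86 in WT.

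Eomes (Tbr2), the T-box factor of intermediate progenitors, was near background. Probe A_55_P2150717 was well above background in no sample. Probe A_55_P2184434 was well above background only in KO hippocampus replicate 1, with a raw signal of 232.8 there and 85.32 to 91.92 in the other KO samples, against a median of 79.3 to 80.8 for the negative controls of that dye. The log2 level on that array was 7.72 in KO and 7.55 in WT, while the other 6 samples lay between 6.15 and 6.77. One array thus stood apart in both genotypes, and no ratio is given.

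The targeted gene, Tet1, had ratios of KO over WT below 0 on all 4 arrays at its brightest probe after loess, without passing the test. The log2 ratios were -0.23 and -0.10 on the hippocampus arrays and -0.18 and -0.20 on the cortex arrays, with means of -0.17 (adjusted p = 0.234) and -0.19 (adjusted p = 0.224). Centring each array on the median of all probes turned these means to 0.09 and 0.06, below the median of the genes tested there. Centring on the genes tested gave -0.43 and -0.48 (adjusted p = 0.00723 and 0.00533). That centring called 8365 of all 16773 genes in hippocampus and 7360 in cortex. Another Tet1 probe averaged -0.22 over the 4 arrays and the last one, dim in WT, 0.21. The deleted part of Tet1 is not given in the labels, so a probe that lies elsewhere in the gene is no check of genotype.

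None of the 8 tested genes passed the test between KO and WT. In hippocampus 0 of 8 were called, where 0.0179% of all genes were (0.00596% higher and 0.0119% lower), and in cortex 0 of 8, where 0.0596% were (0.0119% higher and 0.0477% lower). In the mean of both tissues the count was 0 of 8, where 10.9% of all genes passed (7.12% higher and 3.78% lower). Both KO samples lay apart from both WT samples for 4 of 8 genes in hippocampus, against 51.0% of all genes, and for 3 of 8 in cortex, against 55.7% of all genes. The counts at an unadjusted p under 0.05 were 2 in hippocampus, 1 in cortex and 2 in the mean (limma, n = 2 arrays a tissue). Over all 16773 genes, 3976 reached it in hippocampus, 3547 in cortex and 5672 in the mean, so such p-values were common. The median log2 ratio of the 8 genes was 0.14 in hippocampus, 0.03 in cortex and 0.09 in the mean, against 0.02, 0.04 and 0.03 over all genes. KO was Cy5 and WT was Cy3 on every array, so a dye bias of a probe is part of each ratio.

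Prox1 was the member closest to a call and lay above 0 on 4 of 4 arrays. The log2 ratios were 0.19 and 0.45 on the hippocampus arrays and 0.17 and 0.12 on the cortex arrays. The mean was 0.32 (95% interval 0.10 to 0.55, adjusted p = 0.138) in hippocampus, 0.15 (-0.08 to 0.38, adjusted p = 0.385) in cortex and 0.24 (0.08 to 0.40, adjusted p = 0.0758) over both. WT cortex was not well above background, and the background bound there was 1.07-fold. That bound leaves out sampling error and includes any difference between the dyes. The fitted cortex fold had a 95% interval of 0.946 to 1.3, on both sides of no change. The direction of the cortex value also rests on the scaling. Each array centred on the median of the genes tested in place of loess gave -0.61 in cortex (adjusted p = 0.00477). The mean was then -0.21 (adjusted p = 0.0321), while hippocampus stayed at 0.19 (adjusted p = 0.13). With that scaling 7360 of all 16773 genes were called in cortex and 10516 in the mean.

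Sox2 lay below 0 on all 4 arrays, with -0.14 and -0.15 in hippocampus and -0.40 and -0.13 in cortex. Its mean was -0.15 (-0.37 to 0.08, adjusted p = 0.362) in hippocampus, -0.26 (-0.49 to -0.04, adjusted p = 0.199) in cortex and -0.21 (-0.37 to -0.04, adjusted p = 0.0973) over both. Prox1 and Sox2 were the 2 of 8 genes with 1 sign on all arrays, which 45.7% of all genes also showed. Centring each array on the median of all its probes put the median of the genes tested at 0.53 and Sox2 at 0.31 in the mean, which is below that median. Centred on the genes tested, Sox2 was at -0.22 in the mean (adjusted p = 0.0279) and -0.30 in cortex (adjusted p = 0.0476). Of all 16773 genes, 10516 were then called in the mean and 7360 in cortex.

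Hopx had the ratios 0.32 and 0.18 in hippocampus and -0.14 and 0.05 in cortex. The mean was 0.25 (0.03 to 0.46, adjusted p = 0.176) in hippocampus and -0.04 (-0.26 to 0.17, adjusted p = 0.782) in cortex, and the difference between tissues was 0.29 (-0.01 to 0.60, adjusted p = 1). The second Hopx probe gave 0.33 and 0.20 in hippocampus and 0.01 and 0.08 in cortex. Relative to the median of the genes tested, hippocampal Hopx was at 0.50 (adjusted p = 0.00607), a centring under which 8365 of all 16773 genes were called there.

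Dcx, the marker of new neurons, gave -0.03 and 0.19 in hippocampus and 0.07 and -0.12 in cortex, on both sides of 0 in each tissue. Its interval was -0.16 to 0.32 in hippocampus (mean 0.08, adjusted p = 0.625) and -0.27 to 0.22 in cortex (mean -0.03, adjusted p = 0.892), and a fold of 1.25 in hippocampus is the upper end of that interval. Ccnd2 gave -0.06 and 0.06 in hippocampus and 0.24 and 0.07 in cortex, with intervals of -0.21 to 0.21 and -0.05 to 0.36. Centred on the genes tested, Ccnd2 was at 0.29 in cortex (adjusted p = 0.0459) and 0.26 in the mean (adjusted p = 0.0175). Calls were common there, with 7360 of all 16773 genes in cortex and 10516 in the mean. Nes gave -0.05 and -0.14 in hippocampus and -0.07 and 0.15 in cortex, with intervals of -0.31 to 0.12 and -0.17 to 0.26.

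The 2 probes of Neurod1 gave ratios of KO over WT of different size. The brighter one gave 0.00 and 0.39 in hippocampus and 0.11 and -0.04 in cortex, with means of 0.19 (-0.11 to 0.49, adjusted p = 0.364) and 0.04 (-0.26 to 0.34, adjusted p = 0.872). The dimmer one gave 0.23 and 0.62 in hippocampus and 0.27 and 0.50 in cortex, above 0 on all 4 arrays. Its means were 0.43 in hippocampus and 0.38 in cortex. Sox11 gave 0.69 and 0.09 in hippocampus and 0.39 and -0.34 in cortex, and its second probe 0.61 and 0.15 in hippocampus and 0.15 and 0.01 in cortex. The hippocampal mean of Sox11 was 0.39 (-0.21 to 0.99, adjusted p = 0.358), and the upper end of that interval is 1.99-fold.

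**Figure D3:**
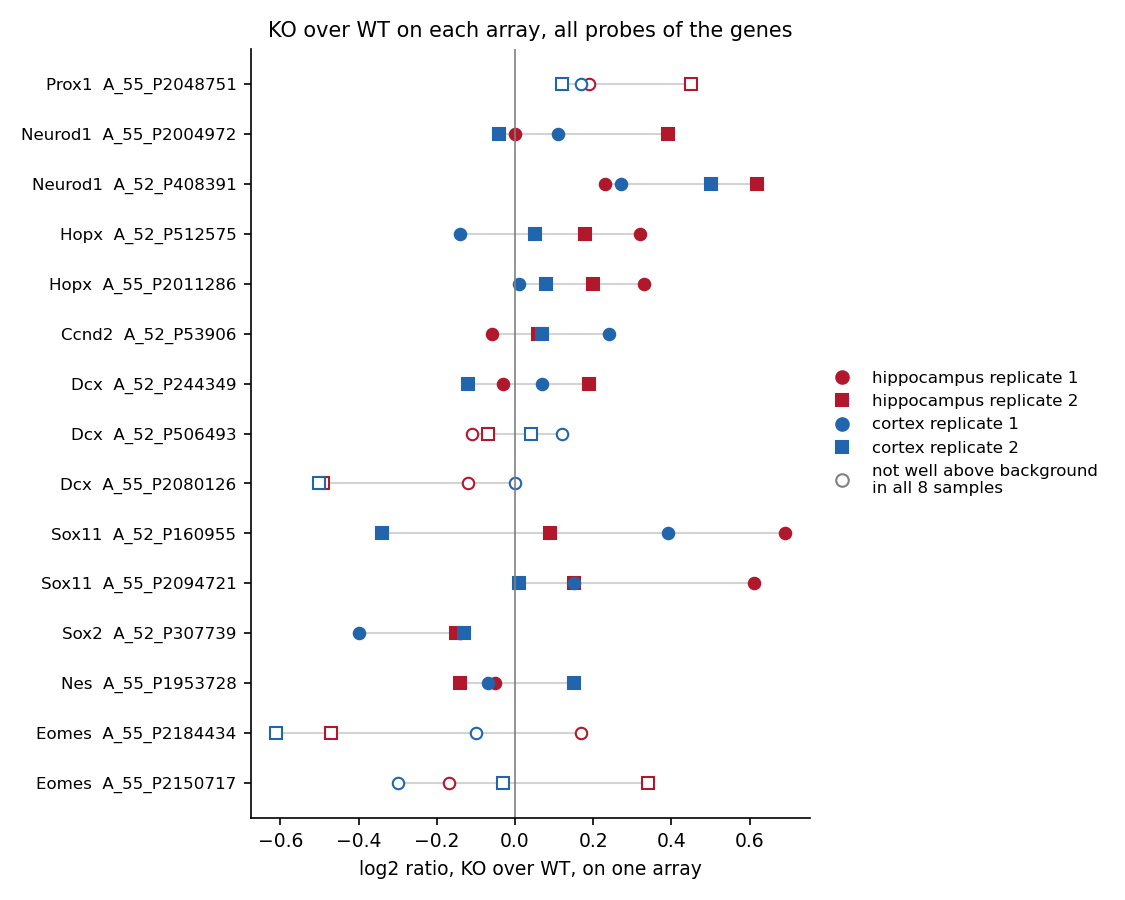
Log2 ratio of KO over WT (horizontal axis) on each of the 4 arrays for all 15 probes of the 9 genes, with the brightest probe of a gene first. Red marks are hippocampus arrays and blue marks cortex arrays, and open marks belong to probes that were not well above background in all 8 samples. After loess, as plotted, Prox1 and the second probes of Neurod1, Hopx and Sox11 lie above 0 and Sox2 below 0 on all arrays. Centring on the genes tested gave Prox1 -0.61 in cortex. Centring on all probes gave Sox2 0.31 in the mean, below the median of the genes tested there (0.53). The main Dcx and Ccnd2 probes lie on both sides.

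The KO effect did not pass the test of a difference between tissues for any of the 8 genes, nor for any of all 16773 genes (0% called, 749 at an unadjusted p under 0.05 in limma), and none of the 8 had an unadjusted p under 0.05. This is also the test of whether hippocampus over cortex differed between KO and WT. The differences of hippocampus minus cortex lay between -0.15 for Ccnd2 and 0.37 for Sox11, with a median of 0.14, against -0.01 over all genes.

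Over the 8 samples, after the mean of each dye was taken out, Prox1 ran with Ccnd2 (r = 0.99), Neurod1 (r = 0.98) and Hopx (r = 0.97), and opposite to Dcx (r = -0.98). Sox11 followed Prox1 least (r = 0.26). These values describe 8 samples that fall into 2 tissues, and they mostly restate the tissue difference. The genes most like Prox1 over the array were D3Bwg0562e, Trpc4 and 5730559C18Rik (r = 0.999 for each), with ratios of hippocampus over cortex in KO of 0.80, 1.93 and 0.46. For Dcx they were Fam81a, Ephx4 and Gm2694 (r = 0.998, 0.997 and 0.996), and for Neurod1 they were Zfp192, Krt2 and Magee2 (r = 0.996, 0.996 and 0.995).

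Other genes of the lineage were read from lists by cell stage. In the list of mature dentate granule neurons, 10 of 14 tested genes were higher and 1 was lower in hippocampus in KO, and 8 were higher and 1 was lower in WT, with medians of 0.63 in KO and 0.48 in WT. Over all genes 7.29% were higher in KO and 7.77% in WT, with medians of 0.01 and 0.03. Lct, lactase, which marks granule neurons in mouse, was higher by 4.37 ± 0.17 in KO and 4.47 ± 0.17 in WT (adjusted p = 5.66e-05 and 4.98e-05). Dsp, a desmosomal linker protein, was higher by 3.44 ± 0.22 in KO (adjusted p = 0.000193) and at least 9.64-fold higher in WT, where its cortex signal was not well above background. C1ql2, a synaptic protein of mossy fibres, was higher by 3.0 ± 0.25 in KO (adjusted p = 0.000584) and at least 8.19-fold in WT. Tdo2, a tryptophan-degrading enzyme, was at least 2.41-fold higher in KO (fitted log2 ratio 1.27 ± 0.17, adjusted p = 0.00396). That call was lost without either cortex array.

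Among immature neuron genes, 8 of 24 were higher and 3 lower in hippocampus in KO (14.8% of all genes passed), and 8 were higher and 4 lower in WT (15.0% of all genes). The transcription factors Neurod6 (1.56 ± 0.13 in KO, 1.78 ± 0.13 in WT) and Bhlhe22 (1.28 ± 0.10 in KO, 1.02 ± 0.10 in WT) rose, as did Nnat, neuronatin (1.15 ± 0.20 in KO, 1.14 ± 0.20 in WT). Neurod6 and Bhlhe22 are also made by mature excitatory neurons. Tbr1, a factor of deep cortical layer neurons, fell (-1.33 ± 0.09 in KO, -1.38 ± 0.09 in WT). The 4 genes had adjusted p-values of at most 0.0106. Nnat was not called when either cortex array was left out, with an adjusted p of up to 0.145 in KO and 0.11 in WT.

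Of 22 genes of stem and radial glia-like cells, 2 were higher in hippocampus in KO and 1 in WT, and none was lower, where 7.29% of all genes were higher in KO and 7.77% in WT. Gfap, the filament of astrocytes and radial glia-like cells, was higher by 1.47 ± 0.22 in KO (adjusted p = 0.00598) and 1.52 ± 0.22 in WT (adjusted p = 0.00525), and was not called without either cortex array (adjusted p of up to 0.0936 in KO and 0.0703 in WT). Of 19 tested genes of cell division, 1 was higher and 2 were lower in KO, and 4 were lower in WT, where 14.8% of all genes passed in either direction in KO and 15.0% in WT, so that these counts lie near the background. Cdkn1a, the cell cycle inhibitor p21, fell in hippocampus by 1.19 ± 0.09 in KO (adjusted p = 0.000345) and by 1.12 ± 0.09 in WT (adjusted p = 0.000403), and Mcm5, a helicase subunit, gave -0.33 in KO and -0.39 in WT (adjusted p = 0.0499 and 0.0276), calls that were lost without any 1 array. The division genes Cdk1, Bub1, Cdk6 and Aurkb were well above background in no sample. Among 24 niche signals, 4 were higher and 2 lower in KO (14.8% of all genes passed), and 6 were higher and 1 lower in WT (15.0% of all genes). The Wnt ligands Wnt7a (0.52 ± 0.08 in KO, 0.50 ± 0.08 in WT) and Wnt7b (0.46 ± 0.11 in KO, 0.47 ± 0.11 in WT), the Hedgehog transducer Smo (0.48 ± 0.11 in KO, 0.68 ± 0.11 in WT) and the Notch ligand Dll1 (0.52 ± 0.07 in KO, 0.38 ± 0.07 in WT) were higher in both, with adjusted p-values of at most 0.0343. Without either cortex array none of these 4 genes passed. Leaving out a hippocampus array also ended calls, of Wnt7a and Wnt7b in both genotypes, Smo in KO and Dll1 in WT. No direction changed, the lowest ratio without 1 array being 0.33 for Smo in KO.

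**Figure D4:**
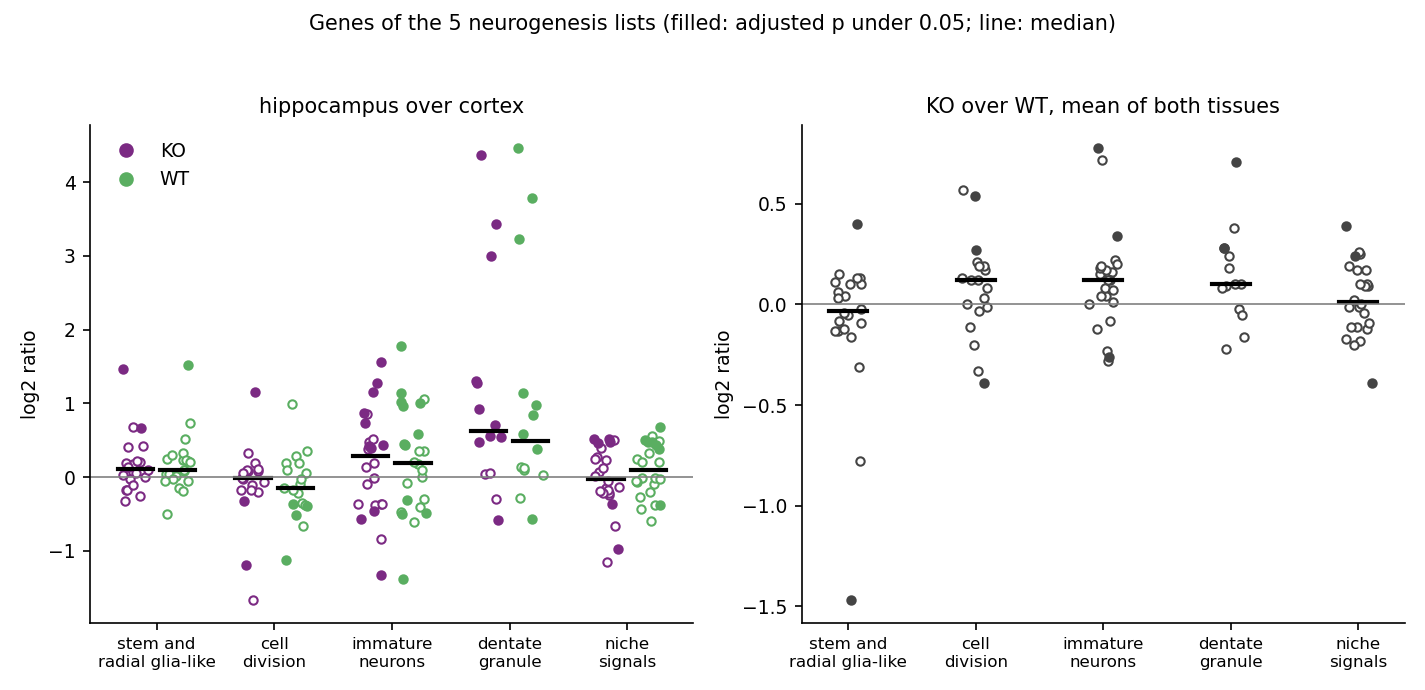
Log2 ratio (vertical axis) of every tested gene in 5 lists of adult neurogenesis. The left panel gives hippocampus over cortex, with KO to the left of WT, and the right panel KO over WT as the mean of both tissues. Filled circles passed an adjusted p of 0.05 and lines are list medians. Mature dentate granule genes reach 4.37 in KO and 4.47 in WT on the left, while on the right the list medians lie between -0.03 and 0.12.

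Between KO and WT, no gene of these lists passed in hippocampus alone or in cortex alone. In the mean of both tissues the calls were 1 higher and 1 lower of 22 stem and radial glia-like genes, 2 higher and 1 lower of 19 division genes, 2 higher and 1 lower of 24 immature neuron genes, 2 higher of 14 dentate granule genes, and 2 higher and 1 lower of 24 niche signals, where 10.9% of all genes passed. Thbs4, thrombospondin 4, an astrocyte protein of the subventricular zone in mouse, had a log2 ratio of -1.47 ± 0.15 (2.78-fold lower, adjusted p = 0.0248), with -1.50 and -1.32 on the hippocampus arrays and -1.96 and -1.11 on the cortex arrays. Ccnd1, cyclin D1, had -0.39 ± 0.06 and Ccne1, cyclin E1, 0.27 ± 0.05 (adjusted p = 0.0379 and 0.0477). Dpysl5, a growth cone protein, had 0.34 ± 0.06 and Rnd2, a small GTPase of migrating neurons, -0.26 ± 0.05 (adjusted p = 0.04 and 0.0458). Of the niche genes, the Bmp antagonist Nog had -0.39 ± 0.06, the Hedgehog target Gli1 0.39 ± 0.07 and the growth factor Igf1 0.24 ± 0.05 (adjusted p = 0.0392, 0.0432 and 0.0478). Signals of these 8 genes were well above background in each of the 8 samples. Each gene had 1 sign on all 4 arrays, as did 45.7% of all genes. They were named by a test on these same arrays, so the shared sign is no separate evidence. Centring on the median of all probes put Ccnd1 at 0.30 and Rnd2 at 0.47, both below the median of the genes tested, and on the median of the genes tested Ccnd1 was at -0.23. That centring ended the calls of Rnd2 (-0.06, adjusted p = 0.418), Gli1 (0.08, adjusted p = 0.254) and Igf1 (0.02, adjusted p = 0.706).

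Dim genes of the lists were also called, although WT was not well above background in 1 tissue or both. Dsp had 0.71 ± 0.07 in the mean (limma adjusted p = 0.0248), with 0.21 to 1.33 over the alternatives. Its background bound in cortex was 1.28-fold, but KO was read in Cy5 and WT in Cy3. That bound thus includes any difference between the dyes and does not by itself show KO above WT. Dsp did not pass in cortex alone. Neurog2, a proneural factor (0.40 ± 0.06), Ccnb1, cyclin B1 (0.54 ± 0.06), St8sia2, which adds polysialic acid to Ncam1 (0.78 ± 0.08), and Tdo2 (0.28 ± 0.05) gave no fold beyond the background bound. Centred on the median of the genes tested, these 4 turned to -0.88, -0.74, -0.50 and -0.74. Every call of a list gene in the mean of both tissues was lost when any 1 of the 4 arrays was left out, when the prior variance followed intensity with robust estimation, and when outlying local backgrounds were kept (0 list genes called in each case).

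The labelled tissues were checked by their markers. Of 10 genes of hippocampal pyramidal neurons, 8 were higher and 1 was lower in hippocampus in KO, and 8 were higher and 0 lower in WT, where 7.29% of all genes were higher in KO and 7.77% in WT. Of 11 cortical layer genes, 6 were lower and 2 higher in KO, and 7 were lower and 1 higher in WT, where 7.54% of all genes were lower in KO and 7.20% in WT. The upper-layer factor Cux2 had -2.00 in KO and -1.82 in WT. All 8 striatal genes were lower in hippocampus in both genotypes, with summed signals of 21330 to 30950 in the 4 hippocampus samples and 143900 to 203000 in the 4 cortex samples. Choroid plexus genes varied between single samples. Their summed signal over 9 genes was 5988 and 20860 in KO hippocampus, 4955 and 272000 in WT hippocampus, 188000 and 115800 in KO cortex, and 96700 and 7768 in WT cortex, and WT hippocampus replicate 2 also had the highest summed thalamic signal (32500, against 10790 to 14400 in the other 7). The part of these sums in the ratios above was not tested. Without hippocampus replicate 2 the same 5 of 8 genes passed between tissues in KO and in WT. The summed signal of 10 astrocyte genes, a cell type that shares Sox2, Hopx and Gfap with stem cells, was 253100 to 297800 in all 8 samples. The brightest probes weigh most in such a sum, so it does not measure astrocyte content. Gfap, a gene of this list, was higher in hippocampus by 1.47 in KO and 1.52 in WT.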

How the data were processed

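RNA of 8 samples was measured on 4 two-colour Agilent arrays, KO in Cy5 and WT in Cy3, from 0.5 µg of total RNA each, per the labels' protocols. The deposited scanner intensities are, per the file headers, output of Feature Extraction 10.1.1.1 with probe positions on mm9. The 2 files of an array were byte-identical in 4 of 4 pairs, so each was read once and split into its channels. The value table the authors deposited is in log2 for each channel, with medians of 8.21 to 8.25. Its log ratios had r = 0.938 to 0.967 with those used here, and it served as an alternative. Its background correction is not given in the sources used here.

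Intensities were read in R 4.3.3 and fitted with limma 3.58.1. Background was corrected with normexp (offset 50), with the background of spots marked as outlying set to the array's median, a choice known to affect the counts. Loess within arrays (span 0.3) gave no weight to the 1377 control spots, outlying spots were left out and spots of a probe averaged. Each gene was read from its brightest probe and kept where 1 group or more had it well above background on each of its arrays, which left 16773 genes, 29 having been left out for outlying spots. KO over WT used the 4 log ratios in lmFit with eBayes (2 residual and 2.62 prior degrees of freedom). Hippocampus over cortex was fitted within each dye on the separate channels after Aquantile scaling, with an intra-spot correlation of 0.191. P-values were two-sided, adjusted by Benjamini-Hochberg over all 16773 genes, and called under 0.05. Errors after ± are standard errors of the fit. The fits, and not the steps before them, were tested on simulated data.

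Spots well above background made up 66.6% to 67.2% in Cy5 and 49.7% to 51.7% in Cy3, and none was saturated. The number of arrays limits the precision. All arrays lay on 1 slide and came from 1 scan, so no batch could be tested. The 9 genes, the marker lists and the tests were chosen with earlier results of these data known. Genes of the lists were named if called between KO and WT, or, between tissues, as up to 4 per list with the largest ratio among those called in both genotypes, and for Dcx, Prox1 and Neurod1 the 3 genes of highest r. Replicate numbers recur in both tissues, but the labels do not tie them to an animal, and with 2 numbers the pairing cannot be established (correlation of replicate differences between tissues across genes 0.244 in KO and -0.077 in WT). Some genes that this rule names are not reported here. Promoter windows are from RefSeq, in which all 9 symbols matched. Alternatives changed the background, normalisation, filter, probe choice, prior variance, source table, replicate block and arrays used.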

Additional observations from a re-analysis of the deposited data

How the results depend on the processing

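Over 16 alternatives, 675 of 762 values of single genes kept their direction and their side of the threshold. The 5 calls between hippocampus and cortex kept their direction in every alternative run, with Prox1 at 1.31 to 2.63 in KO and 1.06 to 2.75 in WT (15 alternatives, since it drops out of the strict filter) and Dcx at -0.86 to -0.41 in KO and -0.96 to -0.37 in WT. Leaving out 1 array gave 3 to 5 called genes in KO and 4 to 5 in WT. With the replicate block the counts were 5 in KO and 5 in WT between tissues and 0 between KO and WT, and the same without the array as a block (no replicate block), so the block changed no call of the 8 genes. Since 2 numbers cannot show that the samples are paired, no more is drawn from it.

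Median centring in place of loess called 8 of 8 genes in hippocampus, 6 in cortex and 8 in the mean. It also called 13359, 13714 and 14480 of all 16773 genes, with the median of all genes at 0.53, 0.54 and 0.53. Centred on the genes tested, an alternative added after the data were seen, 1, 3 and 4 of the 8 genes were called. The counts over all 16773 genes were then 8365, 7360 and 10516, so neither set of calls is read as a result about the 8 genes. The cause was not tested. Under median centring the signs turned in hippocampus for Ccnd2 (0.74), Sox2 (0.37), Nes (0.41) and Tet1 (0.09), in cortex for Dcx (0.54), Prox1 (-0.07), Hopx (0.65), Sox2 (0.24) and Tet1 (0.06), in the mean for Sox2 (0.31), Nes (0.48), Tet1 (0.08), Neurog2 (-0.35), Ccnb1 (-0.21), Ccnd1 (0.30), Rnd2 (0.47), Tdo2 (-0.21), Cldn5 (0.15) and Bok (0.27), and in the difference for Dcx (-0.02). Centred on the genes tested they turned in hippocampus for Dcx (0) and Ccnd2 (0.22), in cortex for Dcx (0), Prox1 (-0.61), Hopx (0.12), Neurod1 (-0.17) and Sox11 (-0.24), in the mean for Dcx (0), Prox1 (-0.21), Neurod1 (-0.02), Sox11 (-0.03), Neurog2 (-0.88), Ccnb1 (-0.74), St8sia2 (-0.50) and Tdo2 (-0.74), and in the difference for Dcx (-0.01).

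The other turns were of values that were not called. Feature Extraction's processed signals gave Ccnd2 0.04 in hippocampus, Neurod1 -0.04 and Sox11 -0.06 in cortex, Dcx -0.01 in the mean and Prox1 -0.12 in the difference. Without background correction Ccnd2 was at 0.01 in hippocampus, Dcx at 0 in cortex and Nes at 0.01 in the mean, and in the authors' deposited table they were at 0.01, 0 and 0.02. With outlying backgrounds kept, Ccnd2 was at -0.09, Nes at 0, Neurod1 at -0.04 and Sox11 at -0.10 in cortex, Dcx at -0.03, Hopx at -0.01 and Ccnd2 at -0.05 in the mean, and Ccnd2 at 0.08 in the difference. The mean of all probes put Dcx at -0.11 in hippocampus, -0.09 in the mean and -0.04 in the difference. Leaving out 1 array gave ranges in hippocampus of -0.03 to 0.19 for Dcx, -0.06 to 0.06 for Ccnd2 and 0 to 0.39 for Neurod1, and in cortex of -0.12 to 0.07 for Dcx, -0.14 to 0.05 for Hopx, -0.07 to 0.15 for Nes, -0.04 to 0.11 for Neurod1 and -0.34 to 0.39 for Sox11. In the mean the range was -0.03 to 0.08 for Dcx and -0.08 to 0.03 for Nes, and in the difference 0 to 0.22 for Dcx, -0.01 to 0.25 for Sox2 and -0.04 to 0.35 for Neurod1. Between tissues it was -0.05 to 0.11 for Nes in KO and -0.27 to 0.13 for Sox11 in WT.

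The count of all genes called between KO and WT in the mean of both tissues was 1829, and lay between 0 (intensity trend with robust estimation) and 14480 (median centring), with 3 when outlying backgrounds were kept and 0 to 1 when an array was left out. The strict filter gave 995, Feature Extraction's processed signals 1204, no filter 3365, centring on the genes tested 10516 and the replicate block 2469. In hippocampus alone the count was 3 (0 to 13359 over the alternatives, 424 with the replicate block), in cortex alone 10 (0 to 13714, 153 with the replicate block) and in the difference 0 (0 to 114). Between tissues the count of all genes lay between 644 and 3067 in KO and between 723 and 2674 in WT. Fits without 1 array leave a group with a single sample, which is assumed to vary like the others. Weak signals in WT limit Eomes, the dim Dcx probes and Prox1 in cortex.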

Other observations

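Cell types outside the lineage were also read between tissues. Adora2a, an adenosine receptor of striatal neurons, had a log2 ratio of hippocampus over cortex of -3.66 ± 0.21 in KO and was at least 17.5-fold lower in WT, and Rgs9 (-2.93 ± 0.16 in KO, -3.12 ± 0.16 in WT) and Ppp1r1b (-2.60 ± 0.18 in KO, -2.56 ± 0.18 in WT) were lower too. Of the pyramidal genes, Fibcd1 had 2.87 ± 0.20 in KO and was at least 9.19-fold higher in WT, Zbtb20 had 1.60 in KO and 1.51 in WT, and Nr3c2, the mineralocorticoid receptor, 1.50 in KO and 1.34 in WT. Of the deep cortical layer genes, Ctgf had -1.82 in KO and -1.39 in WT, and Foxp2 had -1.52 in KO and was at least 1.77-fold lower in WT. Nefl, a neurofilament, had 0.46 in KO and 0.50 in WT, and the thalamic gene Ntng1 0.65 in KO and 0.82 in WT. These named genes had adjusted p-values of at most 0.0276, and when 1 array was left out Ctgf in WT, and Foxp2, Nefl and Ntng1 in both genotypes, were no longer called in at least 2 of 4 cases.

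The lists of oligodendrocyte precursors (6 genes), endothelium and pericytes (10) and choroid plexus (9) had 0 calls between tissues at an adjusted p under 0.05 in limma, where 14.8% of all genes passed in KO and 15.0% in WT. Cajal-Retzius genes had 1 higher of 4 in KO and none in WT, and genes of the subventricular zone and interneuron lineage 1 lower of 9 in KO and in WT. Neurons and thalamus had 1 higher of 6 each in KO and in WT, and astrocytes 1 higher and 1 lower of 10 in KO and 1 higher in WT.

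Between KO and WT in the mean of both tissues, the calls outside the lineage lists were Aldoc, an astrocyte aldolase (0.29 ± 0.05, adjusted p = 0.0444), Cldn5, the tight junction protein of brain endothelium (-0.59 ± 0.07, adjusted p = 0.0279), Tcf7l2 (fitted -0.32 ± 0.05, adjusted p = 0.0336, with WT cortex not well above background and no fold beyond the background bound there), Bok (-0.47 ± 0.09, adjusted p = 0.0457), Rorb (0.43 ± 0.06, adjusted p = 0.0302) and Lmo4 (0.32 ± 0.06, adjusted p = 0.0496). None of these 6 was called when any 1 array was left out. Centring on the median of all probes turned Cldn5 to 0.15 and Bok to 0.27, both below the median of the genes tested there (0.53). Centred on the genes tested, Cldn5 was at -0.38 and Bok at -0.26. In endothelium and pericytes 9 of 10 genes lay below 0 in the mean, with a median of -0.17, against 0.03 over all genes. The median of this list was -0.26 in hippocampus and -0.07 in cortex. Other short lists were as one-sided in the mean. All 6 thalamic genes lay below 0 (median -0.31), and all 6 genes of neurons lay above 0 (median 0.14).

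Gfap, singled out after its values were seen, lay below 0 on every array between KO and WT without passing, with -0.39 and -1.22 in hippocampus and -0.53 and -0.99 in cortex (mean -0.78 ± 0.16, limma adjusted p = 0.0509). Of all genes, 45.7% had 1 sign on the 4 arrays. These values are of the brightest of 3 Gfap probes, and a dye bias of the probe is part of them.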
